A study of Homo sapiens with 6 samples.

Results

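The 10 genes described here were PARP9, DTX3L, PARP14, PARP12 and PARP10, which are known to respond to interferon, and PARP1, PARP2, PARP4, PARP8 and PARP16, which are members of the same enzyme family and served for comparison. They were found by their symbols and were 10 of the 29845 genes in the deposited count table. The study asked which transcripts differ when A549 cells are given extra TFAM, a protein that packages and transcribes mitochondrial DNA. A549 is an established cell line from a human lung carcinoma, of epithelial type. Cells of the control group (n = 3 libraries) were transfected with an empty pIRES-hrGFP-1a vector, and cells of the group labelled TFAM-OE (n = 3 libraries) received the same vector with a cloned TFAM cDNA fused to a FLAG tag. Both groups were therefore transfected with plasmid DNA by lipofection, and no untransfected cells were analysed here.

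PARP enzymes take ADP-ribose from NAD and attach it to proteins or nucleic acids. PARP1 and PARP2 build long chains of it at DNA breaks, while PARP10, PARP12, PARP14, PARP8 and PARP16 are transferases that add single units. Interferons bind receptors at the cell surface, the JAK1 and TYK2 kinases pass the signal on, and the transcription factor complex ISGF3, which holds IRF9, binds a DNA element called ISRE in the promoters of interferon response genes. PARP9 forms a pair with DTX3L, which is not a PARP but an E3 ubiquitin ligase of the deltex family, and the pair is known to modify histones and viral proteins.

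The deposited counts summed to between 26650854 and 37321956 reads per library. TFAM had 12.36, 10.99 and 11.20 FPKM in control replicates 1, 2 and 3 and 10.64, 11.88 and 13.63 FPKM in TFAM-OE replicates 1, 2 and 3. FPKM is the authors' measure of fragments per length of transcript, scaled to the mapped fragments of the library, and is printed for single libraries as deposited. These groups overlapped, and the TFAM log2 fold change was 0.09 (SE 0.10, 95% interval -0.13 to 0.30, adjusted p = 0.62), so the TFAM mRNA did not separate the groups and the second group is called by its label throughout. The study checked TFAM at the protein level, by a western blot against the FLAG tag, and reported that the overexpression had succeeded. That blot was not analysed here. The epithelial keratins KRT8 and KRT18 were at 648 to 743 and 473 to 567 FPKM, while EPCAM and CDH1 stayed at or below 0.47 and 1.48 FPKM. Of 8 markers of blood cells, endothelium and fibroblasts, 7 were in the count table, and their summed level was 6.98 to 7.54 CPM (counts scaled to library size by TMM) in the control and 6.99 to 10.5 CPM in the TFAM-OE group. Of the 2 markers with enough reads to be tested, edgeR and DESeq2 called CD14 higher, with a log2 fold change of 1.10, and limma called neither, and the defining leukocyte gene PTPRC had at most 1 read in any library.

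All 5 interferon-linked genes fell in the group labelled TFAM-OE, by 2.20-fold for PARP12 to 3.39-fold for PARP10. None of the 5 other PARPs met the same thresholds. Calls rest on edgeR's quasi-likelihood test over the 16555 genes with enough reads, a filter that each of the 10 genes passed, and needed both an adjusted p below 0.05 and a change of at least 2-fold in either direction. In these bulk samples fewer cells that express a gene and less of its RNA per cell cannot be told apart. By that rule 5 of 5 interferon-linked genes were called lower, against 2.07% of all genes tested, and their median log2 fold change was -1.59, against -0.01 over all genes. Of the 5 other PARPs, 0 were called lower and 0 higher, against 0.447% of all genes called higher, and their median was -0.08. With 2.51% of all genes called in either direction, a count of 0 in 5 is near the background and no result about these PARPs. DESeq2 and limma on FPKM + 0.1 also called 0 of them, and 2 of them, PARP1 and PARP8, had an unadjusted p under 0.05, as did 25.4% of all genes tested. Every library of one group was below every library of the other for all 5 interferon-linked genes, whereas 15.8% of all genes tested were separated in this way toward lower and 15.8% toward higher values. Among the other PARPs, PARP8 was separated toward lower values in CPM, and PARP1 and PARP16 toward higher values. Separation of the groups was therefore not particular to the interferon-linked genes.

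**Figure D1:**
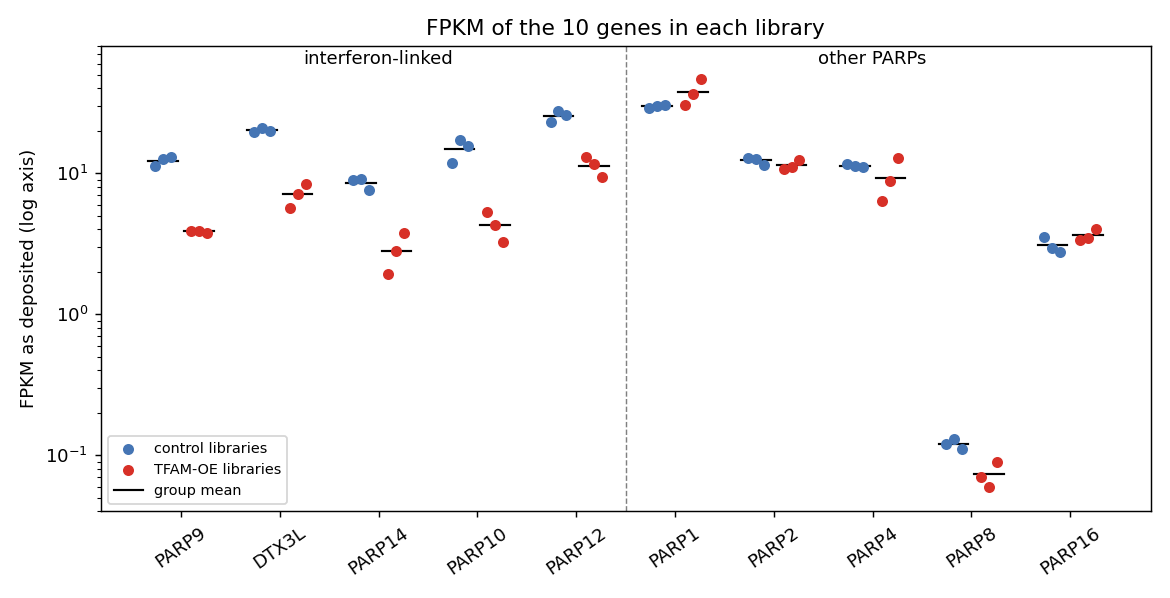
FPKM as deposited (log axis) of the 10 genes in each library, with control libraries in blue, TFAM-OE libraries in red and a bar at each group mean of 3; within a gene, replicates 1, 2 and 3 run from left to right. The 5 interferon-linked genes on the left show no overlap between groups, and on the right PARP8 is the 1 gene with no overlap on this scale.

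PARP9 and DTX3L lie head to head on chromosome 3, PARP9 on the minus strand (chr3:122527924-122564577, GRCh38, GENCODE version 44) and DTX3L on the plus strand (chr3:122564338-122575203), and the annotated genes overlap over 240 bases at their 5′ ends. PARP9, a macrodomain protein that binds ADP-ribose, had 11.20, 12.72 and 12.96 FPKM in control replicates 1, 2 and 3 and 3.90, 3.90 and 3.80 FPKM in TFAM-OE replicates 1, 2 and 3. The TFAM-OE libraries were nearly level with each other, and all were below the lowest control library. Its log2 fold change was -1.65 (SE 0.11, 95% interval -1.89 to -1.40, adjusted p = 3.3e-05), or 3.13-fold lower, on 3143 to 4460 reads in the control and 1005 to 1334 in the TFAM-OE group. DTX3L, its ligase partner, had 19.48, 21.07 and 19.85 FPKM in the control and 5.69, 7.14 and 8.45 FPKM in TFAM-OE replicates 1, 2 and 3. Here the TFAM-OE libraries spread more widely, with replicate 1 lowest and replicate 3 highest, and the groups still did not overlap. The DTX3L log2 fold change was -1.49 (SE 0.12, 95% interval -1.76 to -1.22, adjusted p = 0.00011), or 2.81-fold lower. The ratio of PARP9 to DTX3L in CPM was 0.767, 0.806 and 0.871 in the control and 0.915, 0.729 and 0.600 in the TFAM-OE group, so the balance of this pair overlapped between the groups. The strand setting of the counting is not known from the sources used here, and reads from the shared 240 bases could have gone to either gene.

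PARP14, a large transferase with several macrodomains that was first studied as a coactivator of STAT6, lies on the plus strand of the same chromosome (chr3:122680839-122730840). It had 8.97, 9.13 and 7.58 FPKM in control replicates 1, 2 and 3 and 1.94, 2.79 and 3.76 FPKM in TFAM-OE replicates 1, 2 and 3. The highest TFAM-OE library had less than the lowest control library, and TFAM-OE replicate 1 was the lowest of the 6. The log2 fold change was -1.59 (SE 0.18, 95% interval -1.99 to -1.19, adjusted p = 0.00099), or 3.01-fold lower.

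The genes from PARP9 to PARP14 span 202.9 kb, with 105.6 kb between the end of DTX3L and the start of PARP14, and this gap holds PARP15, a mono-ADP-ribosyltransferase. PARP15 was covered by 5 to 16 reads per control library and 6 to 8 per TFAM-OE library, too few to be tested. Of the 4 protein-coding genes nearest on each side of the block, 7 of 8 were tested and 0 were called by edgeR, DESeq2 or limma, where edgeR called 2.51% of all genes in either direction, and their median log2 fold change was -0.13. KPNA1, an importin that carries proteins into the nucleus, lies 13 kb from the PARP9 side and had a log2 fold change of 0.11 (SE 0.12, adjusted p = 0.61). HSPBAP1 lies 9.2 kb from the PARP14 side and had -0.16 (SE 0.17, adjusted p = 0.59). WDR5B was the 1 of 7 neighbours with an unadjusted p under 0.05, against 25.4% of all genes, and had a log2 fold change of -0.40 (SE 0.15, adjusted p = 0.13). A count of 0 in 7 genes is near that background, so it is no result about the block.

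**Figure D2:**
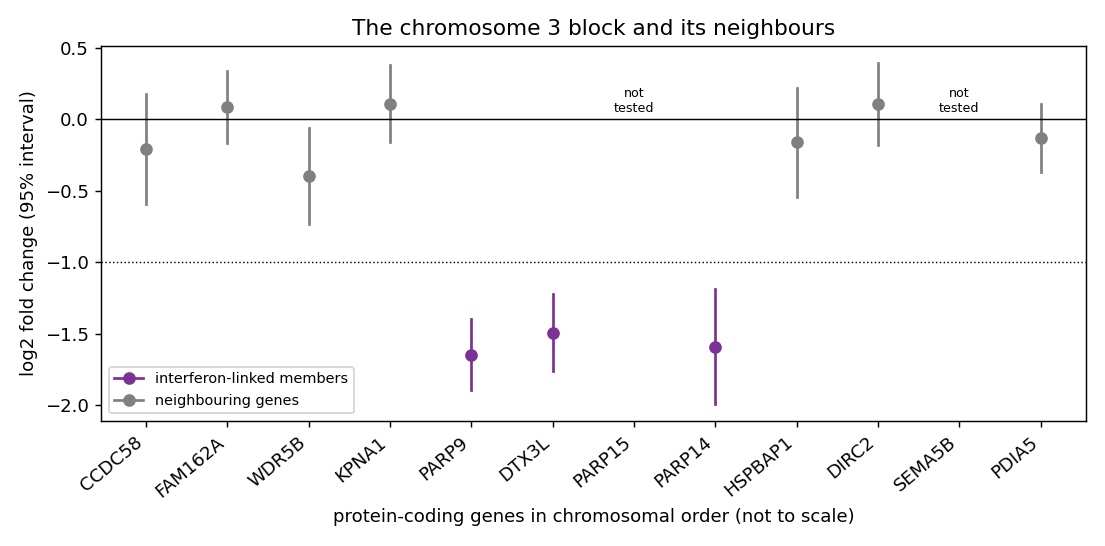
Log2 fold change of TFAM-OE over control with its 95% interval for protein-coding genes in their order along chromosome 3 (not to scale); purple marks PARP9, DTX3L and PARP14 and grey the neighbouring genes. The purple points lie between -1.65 and -1.49, below the dotted line at a 2-fold decrease, and the 7 tested neighbours lie between -0.40 and 0.11.

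PARP12, a transferase with zinc fingers that bind RNA, lies on chromosome 7 (chr7:140023749-140062951, minus strand). It had 22.95, 27.66 and 25.96 FPKM in control replicates 1, 2 and 3 and 12.99, 11.59 and 9.46 FPKM in TFAM-OE replicates 1, 2 and 3. The groups did not overlap, although the gap was the narrowest of the 5 genes as a fold. Its log2 fold change was -1.14 (SE 0.15, 95% interval -1.48 to -0.80, adjusted p = 0.0029), or 2.20-fold lower, and the interval reached past the 2-fold line. Without TFAM-OE replicate 3 the value was -0.98 with an adjusted p of 0.00019, which fell short of 2-fold, so that 4 of the 5 genes were then called.

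To show the DNA at the starts of these genes, promoter windows from RefSeq (GRCh38.p14), each reaching from 250 bases before to 50 after an annotated start, were searched on both strands for the letters GAAANNGAAA, an ISRE-type motif in which N is any base. Windows were found for 4 of the 5 interferon-linked genes and for 4 of the 5 other PARPs, and those of PARP10 and PARP4 were not analysed here. All 4 interferon-linked genes held 1 match, and PARP1, PARP2, PARP16 and the 3 windows of PARP8 held none. Of all 35114 windows, 3.57% held a match. Capitals below mark the match, and each sequence is given 5′ to 3′ on the strand of its gene.
PARP9 (chr3:122564323-122564352, minus strand): tgggcgcaaagTTTCAGTTTCgcttccctg
DTX3L (chr3:122564312-122564341, plus strand): ggagggacctccagggaagcGAAACTGAAA
PARP14 (chr3:122680799-122680828, plus strand): ttccaggaaacGAAAGCGAAAgagtcaaag
PARP12 (chr7:140062952-140062981, minus strand): tttcgccggcccggggccgcTTTCGGTTTC

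The capitals of PARP9 and DTX3L are the same 10 bases of the genome (chr3:122564332-122564341), read from opposite strands. They lie at positions -41 to -32 from the nearer of the 2 annotated PARP9 starts and at -6 to 4 from the DTX3L start, so this pair of genes has 1 match between them. The other PARP9 window held none. The PARP14 match lies at -29 to -20 and that of PARP12 at -10 to -1. For TTCNNNGAA, a motif like the gamma-activated site of interferon response genes, the windows of PARP14 (-40 to -32) and PARP2 (-154 to -146) held 1 match each, and 7.66% of all windows held one. A match is a run of letters and not evidence that a factor was bound in these cells. Over the tested genes whose symbol had a window, 14% of 429 genes with the GAAANNGAAA letters were called lower and 0.233% higher, and of 10092 genes without them 1.3% were called lower and 0.406% higher. The members are among these genes, and no test was made of this difference.

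PARP10, a mono-ADP-ribosyltransferase of the cytoplasm, lies on the minus strand of chromosome 8 (chr8:143977153-144012772) and its annotated span overlaps GRINA on the other strand over 3360 bases. It had 11.78, 17.21 and 15.70 FPKM in control replicates 1, 2 and 3 and 5.31, 4.31 and 3.26 FPKM in TFAM-OE replicates 1, 2 and 3. Control replicate 1 was the lowest control library, yet it was above every TFAM-OE library. The log2 fold change was -1.76 (SE 0.22, 95% interval -2.25 to -1.28, adjusted p = 0.0017), or 3.39-fold lower, the largest and least precise of the 5. The ratio of PARP12 to PARP10 in CPM was 2.04, 1.68 and 1.73 in the control and 2.56, 2.81 and 3.03 in the TFAM-OE group, so it was higher in every TFAM-OE library. The intervals of the PARP10 and PARP12 fold changes overlapped, and the difference between them was not tested. The other ratios taken between interferon-linked genes all overlapped between the groups. These were PARP9 to DTX3L, PARP14 to DTX3L, PARP14 to PARP9 and PARP10 to DTX3L. The share of all gene pairs with a separated ratio was not computed.

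Among the other PARPs, PARP1 and PARP2 bind DNA breaks. PARP1 (chr1:226360210-226408154, minus strand) had 28.84, 30.05 and 30.64 FPKM in control replicates 1, 2 and 3 and 30.44, 36.56 and 46.91 FPKM in TFAM-OE replicates 1, 2 and 3. In CPM every TFAM-OE library was above every control library, and in FPKM TFAM-OE replicate 1 lay within the control range. The log2 fold change of 0.36 (SE 0.12, 95% interval 0.08 to 0.64) did not pass the test (adjusted p = 0.10), and it passed without TFAM-OE replicate 1, at 0.47 with an adjusted p of 0.018. PARP2 (chr14:20343615-20357904, plus strand) had 12.89, 12.69 and 11.39 FPKM in the control and 10.79, 11.12 and 12.49 FPKM in the TFAM-OE group. These groups overlapped, and the interval of its log2 fold change ran from -0.31 to 0.14 around -0.08 (adjusted p = 0.65), which leaves out a 2-fold change in either direction.

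PARP4, the ADP-ribosyltransferase of the vault, a large ribonucleoprotein particle, lies on chromosome 13 (chr13:24420931-24512778, minus strand), within a span that the pseudogene TPTE2P6 covers on the other strand. It had 11.60, 11.27 and 10.99 FPKM in the control and 6.38, 8.75 and 12.83 FPKM in TFAM-OE replicates 1, 2 and 3. The control libraries were nearly equal, and the TFAM-OE libraries lay on both sides of them. The log2 fold change was -0.27 (SE 0.18, 95% interval -0.67 to 0.13, adjusted p = 0.38), and without TFAM-OE replicate 3 it was -0.51 with an adjusted p of 0.011. Of the vault's other proteins, MVP, its main shell protein, had a log2 fold change of -0.06 (SE 0.09, adjusted p = 0.72), and TEP1 fell by 0.71 on the log2 scale (SE 0.18, adjusted p = 0.038), short of the 2-fold threshold. Of these 2 vault genes, 0 were called, where edgeR called 2.51% of all genes in either direction, so the count is no result about the vault.

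PARP16 (chr15:65234460-65300618, minus strand), a transferase anchored in the membrane of the endoplasmic reticulum, had 3.53, 2.96 and 2.76 FPKM in the control and 3.36, 3.50 and 4.01 FPKM in the TFAM-OE group. Its log2 fold change was 0.26 (SE 0.13, 95% interval -0.04 to 0.55, adjusted p = 0.25), with every TFAM-OE library above every control library in CPM but not in FPKM. PARP8 (chr5:50665899-50846519, plus strand), a little studied family member, was near the limit of detection. Control replicates 1, 2 and 3 gave 37, 33 and 38 reads and TFAM-OE replicates 1, 2 and 3 gave 23, 20 and 25 reads, or 0.11 to 0.13 and 0.06 to 0.09 FPKM. All TFAM-OE libraries were lower, and its log2 fold change of -0.68 (SE 0.26, 95% interval -1.26 to -0.11) did not pass the test (adjusted p = 0.13). This interval overlapped those of DTX3L, PARP14 and PARP12, so PARP8 was not separated from those genes, whereas the intervals of PARP1, PARP2, PARP4 and PARP16 overlapped none of the 5 interferon-linked genes.

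**Figure D3:**
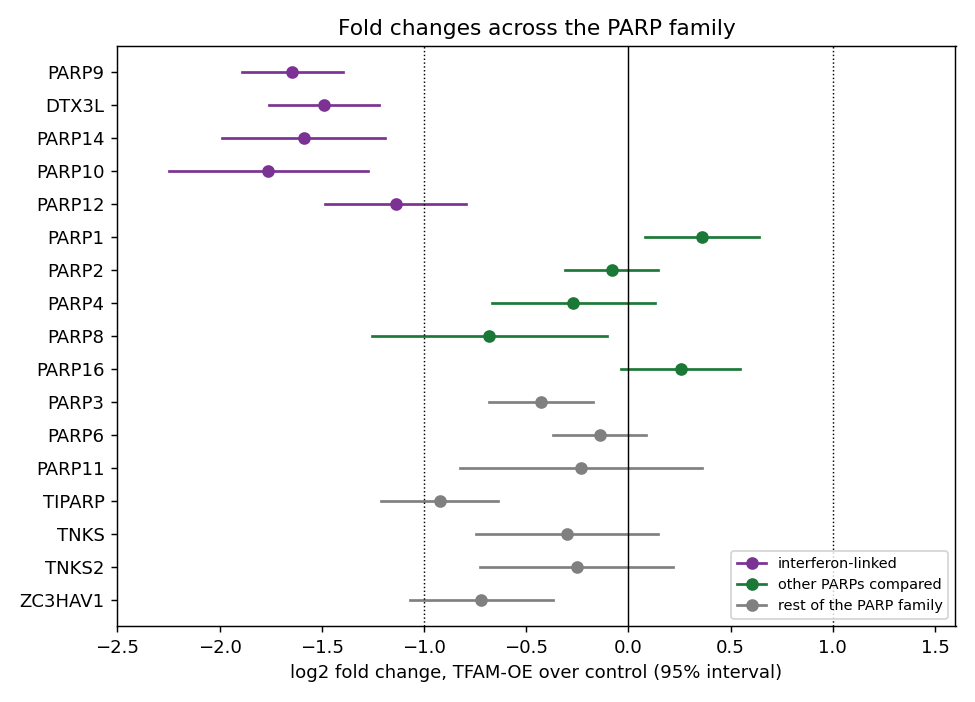
Log2 fold change of TFAM-OE over control (points) with 95% intervals (lines) for the 5 interferon-linked genes in purple, the 5 other PARPs in green and the 7 further PARP genes tested in grey; dotted lines mark 2-fold. The purple points lie from -1.76 to -1.14, the green from -0.68 to 0.36 and the grey from -0.92 to -0.14. Some green and grey intervals overlap purple ones.

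The order of the levels changed between the groups. FPKM is per length, so it was used to compare levels between genes. In the control PARP1 was highest at 29.8 ± 0.92 FPKM (SD, n = 3), followed by PARP12 at 25.5 ± 2.39, DTX3L at 20.1 ± 0.83 and PARP10 at 14.9 ± 2.80, and the library ranges of neighbours in this part of the order did not overlap. PARP10, PARP2, PARP9 and PARP4 followed one another with overlapping ranges, at 14.9, 12.3, 12.3 and 11.3 FPKM, and PARP14 at 8.56 ± 0.85, PARP16 at 3.08 ± 0.40 and PARP8 at 0.12 ± 0.01 were each apart from the next. In the TFAM-OE group PARP1 was still highest at 37.97 ± 8.33 FPKM, and PARP2 was next at 11.5 ± 0.90. PARP12 at 11.3 ± 1.78, PARP4 at 9.32 ± 3.26 and DTX3L at 7.09 ± 1.38 followed with ranges that overlapped from PARP2 onward. PARP10 at 4.29 ± 1.03, PARP9 at 3.87 ± 0.06, PARP16 at 3.62 ± 0.34 and PARP14 at 2.83 ± 0.91 overlapped in turn. PARP9 and PARP14 were well above PARP16 in the control and overlapped its FPKM range in the TFAM-OE group. For PARP9 this overlap depends on the authors' lengths. In CPM PARP9 had 33.5 to 38.1 and PARP16 11.4 to 12.3 in the TFAM-OE group. Their canonical transcripts have 3045 and 2734 bases.

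Together the interferon-linked genes gave 56.6%, 60.6% and 59.5% of the summed FPKM of the 10 genes in control replicates 1, 2 and 3, and 36.9%, 33.1% and 27.3% in TFAM-OE replicates 1, 2 and 3. Their sum was 74.4 to 87.8 FPKM in the control and 28.7 to 29.8 FPKM in the TFAM-OE group. The TFAM-OE libraries therefore differed in the share mainly through the other PARPs, whose sum ran from 51.0 to 76.3 FPKM, with PARP1 as its largest part. Without PARP1 the shares were 72.6% to 76.5% and 49.4% to 59.2%. The size of all these shares also rests on the lengths behind the deposited FPKM.

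**Figure D4:**
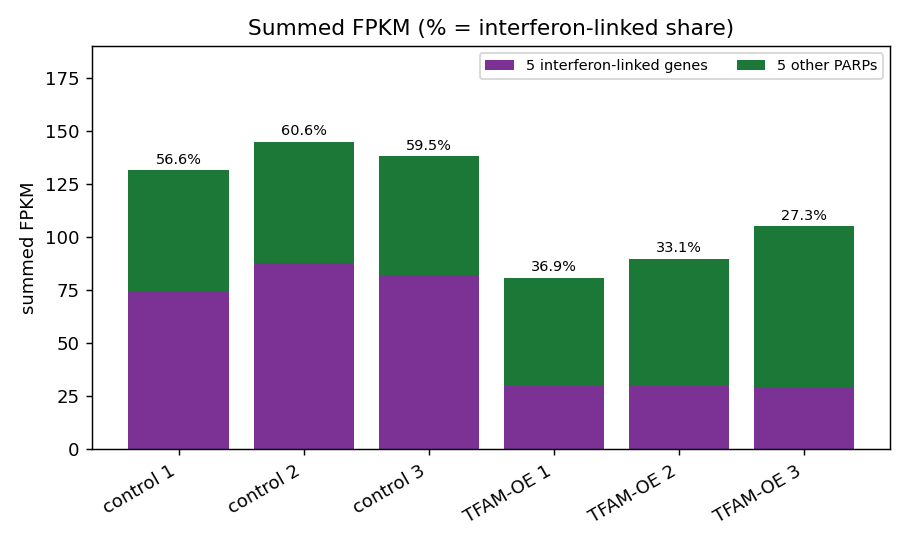
Summed FPKM per library of the 5 interferon-linked genes (purple) and the 5 other PARPs (green), with the purple share printed as a percentage. The purple part is 74.4 to 87.8 FPKM in the control libraries and 28.7 to 29.8 FPKM in the TFAM-OE libraries.

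Within the TFAM-OE group the interferon-linked genes did not move together from library to library. On the log2 CPM scale TFAM-OE replicate 1 was above replicate 3 by 0.85 for PARP10, 0.61 for PARP12 and 0.19 for PARP9, whereas DTX3L (-0.42) and PARP14 (-0.81) were lower in replicate 1. PARP4 (-0.86) and PARP1 (-0.47) went the same way as PARP14. The transcripts of PARP10 and PARP12 have a GC content of 66.8% and 53.5%, that of PARP1 of 49.6%, and those of PARP9, DTX3L, PARP14 and PARP4 of 42.7% to 44.5%. PARP9, at 42.7%, went the other way from DTX3L, PARP14 and PARP4. Over all genes the median log2 ratio of TFAM-OE replicate 1 to replicate 3 was -0.25 at a GC content up to 40% and 0.24 above 60%. For control replicate 1 to replicate 3 these medians ran the other way, at 0.15 and -0.14. The median log2 fold change of TFAM-OE over control also varied with GC content, at -0.14 and 0.12. The part of GC content in the members' differences between libraries was not tested. In a fit with a GC offset for each library the 5 interferon-linked genes were again called, at log2 fold changes from -1.90 for PARP10 to -1.12 for PARP12, and the PARP1 value of 0.40 just passed the adjusted p threshold (0.04997) but not the fold threshold.

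**Figure D5:**
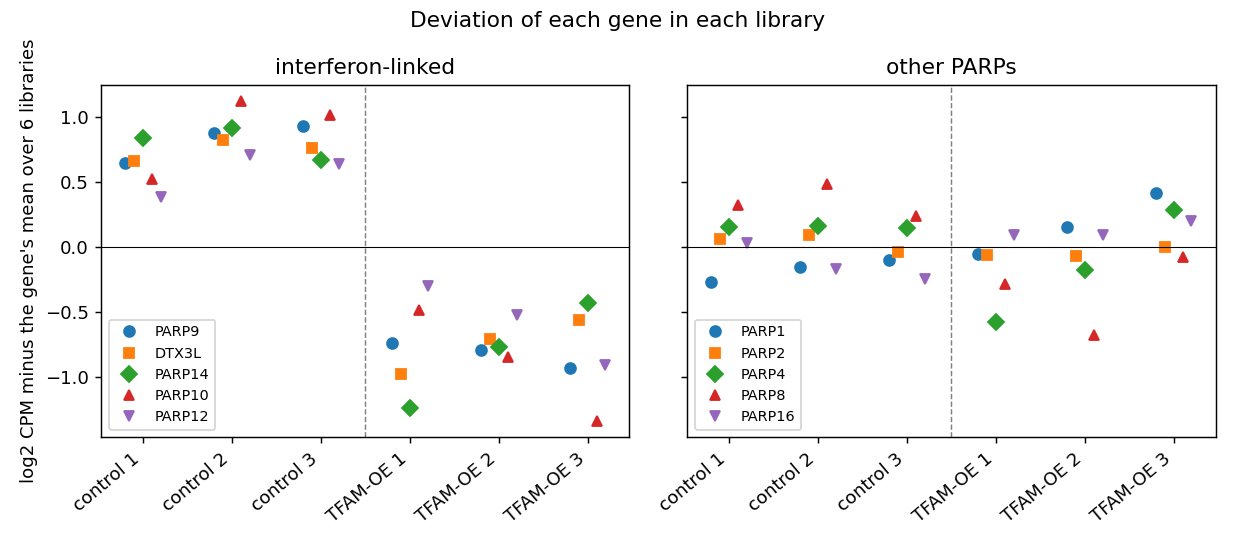
Log2 CPM of each gene in each library, minus the gene's mean over the 6 libraries, for the interferon-linked genes (left) and the other PARPs (right). On the left every control value is above 0 and every TFAM-OE value below it, with PARP10 lowest in TFAM-OE replicate 3 and PARP14 lowest in TFAM-OE replicate 1, while on the right values of both groups lie on either side of 0.

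The genes whose log2 CPM profile over the 6 libraries lay closest to each interferon-linked gene were sought among 10952 genes with a mean of at least 5 CPM, by the root mean square difference after centring. DTX3L was the closest of all to PARP14 (0.145), and PARP14 was also the nearest of the members to DTX3L. For PARP9 the closest were HELZ2 (0.076), a helicase that acts as a nuclear receptor coactivator, ISG20 (0.105), an exonuclease, and SP110 (0.118), a nuclear body protein. For DTX3L they were TRANK1 (0.122), APOL1 (0.130), the trypanosome lytic factor of human serum, and SAMHD1 (0.135), which breaks down dNTPs. HERC5 (0.198), the ISG15 ligase, and TRANK1 (0.195) followed DTX3L for PARP14. PARP10 was closest to USP18 (0.105), which removes ISG15 from proteins, UBE2L6 (0.138), the ISG15-conjugating enzyme, and IRF7 (0.143), a transcription factor for type I interferon genes. PARP12 was closest to C19orf66 (0.051), an inhibitor of viral translation, PSMB8 (0.073), an immunoproteasome subunit, and NLRC5 (0.077), the transactivator of MHC class I genes. These genes were picked for a profile like that of genes that fell, so a similar fall was fixed by the choice. All of them were called lower, with log2 fold changes from -1.93 for IRF7 to -1.003 for PSMB8. PARP14 and PARP10 were the least alike pair of interferon-linked genes (0.514).

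In the rest of the PARP family 7 of 8 genes were tested, with a median log2 fold change of -0.30. Of these 7, 0 were called by edgeR, DESeq2 or limma. With 2.51% of all genes called by edgeR in either direction, this count is near the background and no result about the family. By adjusted p alone 3 of the 7 were lower, against 4.81% of all genes, and 0 were higher, against 3.48%. TIPARP, a transferase induced by the aryl hydrocarbon receptor, had 18.01, 13.20 and 12.56 FPKM in the control and 7.35, 7.60 and 7.68 FPKM in the TFAM-OE group, and it fell by 0.92 on the log2 scale (SE 0.13, adjusted p = 0.0032). ZC3HAV1, the zinc finger antiviral protein that binds CpG-rich viral RNA, had 7.83 to 9.37 and 3.72 to 6.66 FPKM and fell by 0.72 (SE 0.16, adjusted p = 0.024). PARP3, which acts at DNA breaks, fell by 0.43 (SE 0.11, adjusted p = 0.048). The log2 fold changes of the tankyrases TNKS and TNKS2, which modify telomere and Wnt pathway proteins, were -0.30 and -0.25, those of PARP6 and PARP11 were -0.14 and -0.23, and none of these 4 passed the test.

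Genes that work with the PARPs were counted by list, and the counts at an unadjusted p under 0.05 stand against 25.4% of all genes. The counts called stand against the 2.51% of all genes that edgeR called in either direction. A count of 0 in lists this short is near that share and no result about them. Of 7 genes listed for ADP-ribose removal, 0 were called by edgeR, DESeq2 or limma and 0 had an unadjusted p under 0.05 by edgeR. Their median log2 fold change was -0.14. PARG, which cuts the chains that PARP1 makes, had a log2 fold change of -0.14 (SE 0.15, adjusted p = 0.61). Of the 4 other deltex ligases, 0 were called by any of these tools, 0 had an unadjusted p under 0.05, and the median was 0.07. DTX2 was at 18.1 to 20.2 FPKM over the 6 libraries with a log2 fold change of 0.003. DTX3L was below this range in the TFAM-OE libraries only. Of 8 partners of PARP1 and PARP2 at DNA breaks, 0 were called by the same tools, 2 of the 8 had an unadjusted p under 0.05, a share like that of all genes, and the median was 0.17. HPF1, listed under its older name C4orf27, completes the active site of PARP1 and had a log2 fold change of 0.23 (SE 0.11, adjusted p = 0.23).

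NAD is the substrate of every PARP transferase. Of 11 genes of NAD supply and use, 10 were tested, 0 were called by edgeR, DESeq2 or limma, and the median log2 fold change was 0.006. The count of 0 is near the 2.51% of all genes that edgeR called in either direction. NAMPT, the rate-limiting enzyme of NAD salvage, had 160, 139 and 125 FPKM in the control and 85.8, 99.1 and 117 FPKM in the TFAM-OE group, with every TFAM-OE library lower. It fell by 0.47 on the log2 scale (SE 0.12, adjusted p = 0.036), less than 2-fold, and 2 of the 10 genes had an unadjusted p under 0.05, no more than the 25.4% of all genes.

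Of 9 genes from interferon ligands to ISGF3, 8 were tested, 3 were called lower, against 2.07% of all genes, and 0 higher, against 0.447%, and the median log2 fold change was -0.42. The ligand IFNB1 was at 3.50 to 5.30 FPKM in the control and 0.13 to 0.35 FPKM in the TFAM-OE group. IFNL1 was at 4.49 to 7.98 and 0.38 to 0.51 FPKM. IFNB1 had 121 to 174 reads in the control and 5 to 12 in the TFAM-OE group, and IFNL1 had 169 to 261 and 11 to 19. The log2 fold changes of these ligands, which rest on few TFAM-OE reads, were -4.28 (SE 0.32, adjusted p = 7.2e-05) and -3.87 (SE 0.27, adjusted p = 4.4e-05). The receptor chains IFNAR1 and IFNAR2 and the kinases JAK1 and TYK2 had log2 fold changes of -0.23, -0.11, -0.002 and 0.37, and none of them passed the test. STAT2, a subunit of ISGF3, had -1.02 (SE 0.16, adjusted p = 0.0055). IRF1, a transcription factor that interferon induces, fell by 0.61 (SE 0.13, adjusted p = 0.024), short of 2-fold, and IRF9 had at most 5 reads in any library and was not tested. That the members, STAT2 and the ligands were lower in the same 3 libraries is a description, and the part of the interferon signal in the members' levels was not tested.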

How the data were processed

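Polyadenylated RNA of 6 A549 libraries was sequenced, 3 per group. Per the labels and the study's methods, the kit was stranded, reads were trimmed, aligned to GRCh38 with TopHat2 and those mapped uniquely were counted per gene. The counting program, its annotation and its strand setting were not given in the sources used here. The authors deposited a count of reads and an FPKM value per gene and library, with no pooling of replicates, and unused value columns numbered 0. The test was the quasi-likelihood F test of edgeR (4.0.16, under R 4.3.3), two-sided, after TMM scaling and filterByExpr, a filter the study's methods do not name, with Benjamini-Hochberg adjustment over 16555 genes. Log2 fold changes are TFAM-OE over control. Each SE was worked back from the fitted coefficient and the F statistic, and the 95% interval was built from that SE. For the edgeR fits, SE and interval therefore restate the test and are no separate estimate of error. FPKM served for levels between genes. A match to GENCODE was found for 97.2% of genes. The methods call the libraries biological replicates, the labels do not say how cultures were separated, and precision rests on 3 libraries per group, with 26650854 to 37321956 reads each. An exact permutation test of 3 against 3 cannot go below 0.1 and was not used.

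The members and the gene lists were chosen with earlier results of these data known. The genes named are the 10 members, genes of the lists that were called or are partners or neighbours of a member, and the 3 genes most alike in profile to each interferon-linked member; WDR5B, PARP3, TIPARP, ZC3HAV1, NAMPT and the other list genes below the thresholds that carry a value were named after their values were seen. The scripts were tested on simulated data with known changes. Alternatives were DESeq2 (1.42.0), limma (3.58.1) on log2(FPKM + 0.1) or log2(FPKM + 1), other scalings and filters, each library left out, replicate numbers as a block, a GC offset and the adjusted p alone. Figures were drawn with matplotlib (3.10.9). Some results that the rule for named genes would give are not reported here.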

Additional observations from a re-analysis of the deposited data

How the results depend on the processing

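The number of interferon-linked genes called was 5 under every alternative run except without TFAM-OE replicate 3, which called 4, and with each library left out in turn it was thus 4 to 5. The number of other PARPs called was 0 under all of them, which is near the 2.51% of all genes called in the main test. Over those alternatives the log2 fold changes ranged from -1.72 to -1.45 for PARP9, -1.58 to -1.38 for DTX3L, -1.79 to -1.34 for PARP14, -1.98 to -1.56 for PARP10 and -1.28 to -0.98 for PARP12, and no member changed sign. PARP1 passed the adjusted p threshold with no filter on low counts (0.37, adjusted p = 0.029), with the GC offset and without TFAM-OE replicate 1. The value of PARP8 shrank to -0.06 with 1 added to FPKM, which lies far above its level.

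Over all genes the 342 called lower and 74 called higher became 528 and 129 with no filter, 108 and 11 with limma on log2(FPKM + 1), and 796 and 576 by adjusted p alone. With limma on log2(FPKM + 0.1) 44 were called higher. Leaving out 1 library gave 183 (without control replicate 1) to 448 (without TFAM-OE replicate 3) called lower and 21 to 113 called higher, from the same 2 libraries, and the counts were 184 and 28 without control replicate 2 and 205 and 41 without TFAM-OE replicate 2. With replicate numbers as a block 217 and 38 were called. Libraries with the same number did not deviate together (r = -0.23, 0.008 and -0.27). No library correlated best with its own number, so the numbers were not taken as pairs. The highest r were 0.25, for control 3 with TFAM-OE 1, and 0.24, for control 1 with TFAM-OE 3. The block changed no call of a member. The scalings moved the median log2 fold change of all genes by less than 0.1. The causes of these changes in count were not tested. Reads were fewest for PARP8 among the members, at 20 to 38 per library, and no alternative depth was run.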
